A study of Mus musculus with 28 samples.

Results

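Peripheral neural stem cells (pNSCs) grown from dorsal root ganglia (DRG), the clusters of sensory neurons and glia beside the spinal cord, were compared with neural stem cells (NSCs) grown from brain. The study uses the name pNSCs for neural stem cells found outside the central nervous system, in lung and tail as well as DRG. The comparison takes the samples whose labels read Wnt1Cre-mTmG DRG pNSCs and Wnt1Cre-mTmG brain NSCs, 3 of each, which are 6 of the 28 samples in the series. Both lines came from mice carrying Wnt1-Cre and the R26-mTmG reporter. In these mice the promoter of Wnt1, active in the dorsal neural tube, in premigratory neural crest and in the midbrain, drives Cre, and cells with Cre in their history switch from membrane Tomato to membrane GFP. The DRG pNSCs were derived without sorting from postnatal mice (days 1 to 5), plated at low density in NSC medium with EGF and bFGF at 10 ng/ml each, and expanded from picked clusters after 3 weeks; they were Tomato+ and GFP-. The brain NSCs were grown in the same medium with EGF and bFGF at 10 ng/ml, and the age of the brains is not given. The study states that control brain NSCs mostly came from the same mice as the pNSCs, without saying so for this line. The labels name the strain C57BL/6 for all samples, while the methods describe mice on other backgrounds, and the sex of each line is not given. The study calls the 3 samples of a group biological replicates. The labels do not say whether the 3 samples of a group came from separate mice or from repeated cultures of 1 line, so p-values here measure the spread between these samples, which may be technical, and a line made from a picked cluster carries the properties of its founder cells.

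Neural stem cells divide in EGF and FGF and can give rise to neurons, astrocytes and oligodendrocytes. Along the head-to-tail axis of the embryo, neural cells acquire transcription factors that record their position: Six3, Emx2, Otx and related factors mark the forebrain and midbrain, and the Hox genes, arranged in 4 clusters named A to D, are switched on in order from the hindbrain to the tail, with low numbers anterior and high numbers posterior. Neural crest cells leave the dorsal neural tube and form, among others, the neurons and Schwann cells of the DRG, under factors such as Sox10, Tfap2a and Twist1.

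RNA was measured by sequencing of polyA-selected RNA, and the deposited values are raw counts per gene. Total counts ran from 9808246 to 11431445 per sample, so that 3 counts, taken here as the smallest detectable amount in a library, stand for 0.263 to 0.306 cpm (a count divided by the library size). All levels below are cpm after TMM scaling, which sets the effective library sizes on the assumption that most genes do not change. The samples of a group differed by little more than counting error, with mean squared differences 1.09 to 1.28 times it, and Pearson's r across genes was 0.997 within each group and 0.956 to 0.957 between the groups (a description across genes, which are not replicates). The share of counts from mitochondrial genes was 2.71% to 2.80% in all 6 samples, and the share from ribosomal protein genes was 2.57% to 2.61% in brain NSCs and 3.03% to 3.07% in DRG pNSCs.

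Of 28244 genes, 12721 had enough counts to be tested. With edgeR's quasi-likelihood test, at a Benjamini-Hochberg adjusted p under 0.05 and an at least 2-fold change, 1134 genes (8.91%) differed between DRG pNSCs and brain NSCs. Of these, 372 (2.92%) were higher and 762 (5.99%) lower in DRG pNSCs. The adjusted p alone was passed by 7646 genes (60.1%), and for 8019 genes (63%) no DRG sample overlapped a brain sample, so the fold threshold, more than the p-value, set which genes were called. Of the 372 higher genes, 131 were at least 4-fold higher and 49 at least 16-fold. Of the 762 lower genes, 296 were at least 4-fold lower and 83 at least 16-fold. In bulk samples, fewer cells of a type and less RNA per cell cannot be told apart.

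**Figure D1:**
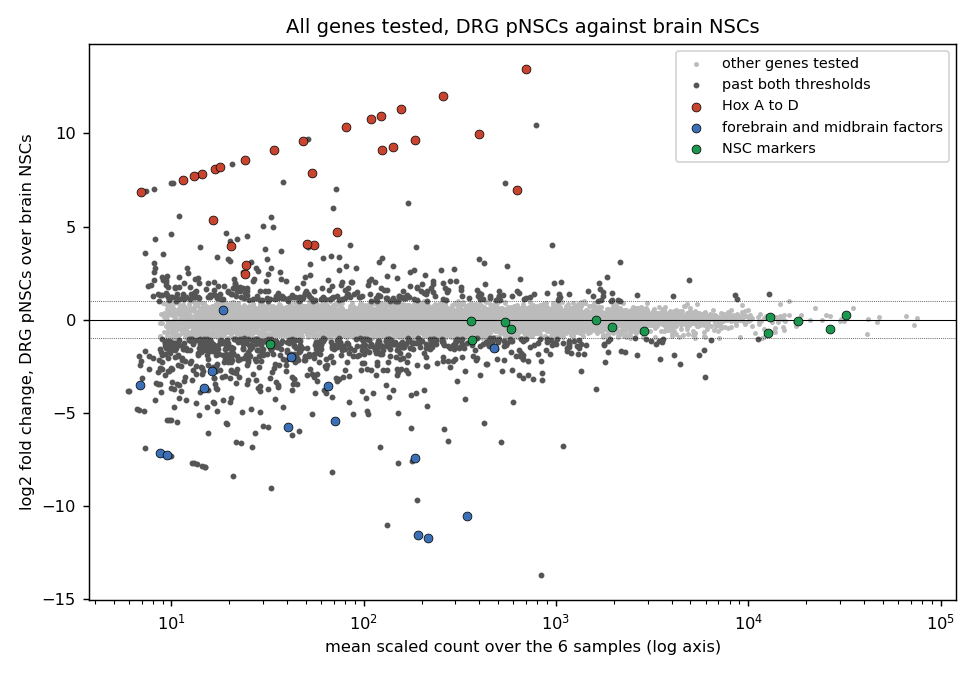
Log2 fold change of DRG pNSCs over brain NSCs (vertical axis) against the mean scaled count over the 6 samples (horizontal, log axis) for the 12721 genes tested. Dark points are the 1134 genes past both thresholds; the 28 Hox genes lie above the upper dotted line (2-fold), 14 of the 15 forebrain and midbrain factors lie below the lower one, and 11 of the 13 NSC markers lie between the lines.

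The NSC markers were present in both lines, and 11 of the 13 did not differ by 2-fold, beside 11587 of the 12721 genes tested. This list follows markers that the study itself examined in these lines, so its levels are a check of the label and not independent evidence. Nestin (Nes), an intermediate filament of neural progenitors, was at 1782, 1774 and 1744 cpm in the brain NSCs and at 1691, 1663 and 1658 cpm in the DRG pNSCs. Sox2, the transcription factor that maintains neural progenitors, was at 334, 336 and 326 cpm in brain NSCs and at 216, 216 and 214 cpm in DRG pNSCs, a log2 fold change of -0.63 ± 0.03 (SE), which was outside the spread of the samples and short of 2-fold. Olig2, a factor of ventral progenitors that NSCs in culture also express, was at 1171 ± 22 cpm (SD, n = 3) in brain NSCs and 1300 ± 15.3 cpm in DRG pNSCs.

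None of the 13 markers was called higher and 2 were called lower, beside 2.92% higher and 5.99% lower of all genes tested. Sox1, a SoxB1 factor of the early neural plate, was at 44.9, 49.4 and 47.2 cpm in brain NSCs and at 23.8, 20.7 and 21.6 cpm in DRG pNSCs (log2 fold change -1.09 ± 0.07, adjusted p = 4.22e-32). Prom1, which encodes the surface protein CD133, was at 4.41 ± 0.0883 cpm and 1.80 ± 0.207 cpm (-1.29 ± 0.22, adjusted p = 1.09e-07). The groups did not overlap for either gene, as for 63% of all genes tested, and neither passed a test of a change larger than 2-fold (edgeR's glmTreat). Pax6, a factor of dorsal and cortical progenitors, had overlapping samples, at 31.4 to 36.9 cpm in brain NSCs and 30.8 to 35.1 cpm in DRG pNSCs (adjusted p = 0.48).

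The other members moved by less than 2-fold. Fabp7, a fatty acid binding protein of radial glia, was at 2775 ± 11.4 cpm in brain NSCs and 3336 ± 5.52 cpm in DRG pNSCs, and Slc1a3, the glial glutamate transporter, at 1491 ± 4.61 and 908 ± 8.69 cpm. Vim, the intermediate filament vimentin, had a log2 fold change of -0.50 ± 0.01, Cd44, a hyaluronan receptor, of -0.51 ± 0.05, Sox3, another SoxB1 factor, of -0.37 ± 0.03 and Msi1, an RNA-binding protein of progenitors, of -0.14 ± 0.05. For these 6 genes the samples of the groups did not overlap, as for 63% of all genes tested.

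By the share of tested members called, the Hox genes stood first among the lists examined. Of 39 Hox genes, 28 had enough counts to be tested, and all 28 were higher in DRG pNSCs, against 2.92% of all genes tested: 9 in the A cluster, 8 in B, 8 in C and 3 in D. The members that passed the filter on low counts passed through DRG pNSCs, where they are high, so their number supports nothing by itself. The other 11 had at most 19 counts in any of the 6 samples. Summed over the clusters, Hox transcripts took 4.03 to 4.70 cpm in the brain NSCs and 644 to 650 cpm in the DRG pNSCs, and 15 of the 28 genes tested had no count in any brain NSC sample. With such genes set at their lower bound, the median log2 fold change of the 28 was 4.85, beside 0.00346 over all genes tested (8.13 as fitted, a value that depends on the prior count).

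For 4 of the genes that lay at or near 0 in 1 of the lines, the 250 bases before the RefSeq transcription start are shown, since the change at these genes was from an ample level to almost nothing: 2 Hox genes of trunk identity and 2 forebrain factors. The sequences are from RefSeq on GRCm38.p6, read 5′ to 3′ on the strand of the gene, with CpG dinucleotides in capitals. They span chr6:52227371-52227620 (minus strand) for Hoxa9, chr11:96281655-96281904 (plus strand) for Hoxb8, chr10:42583591-42583840 (minus strand) for Nr2e1 and chr17:85620584-85620833 (plus strand) for Six3.
Hoxa9: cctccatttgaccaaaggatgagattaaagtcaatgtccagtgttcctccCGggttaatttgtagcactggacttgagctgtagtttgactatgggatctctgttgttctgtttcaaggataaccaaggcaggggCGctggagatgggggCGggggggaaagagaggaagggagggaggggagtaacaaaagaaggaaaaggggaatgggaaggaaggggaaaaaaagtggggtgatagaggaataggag
Hoxb8: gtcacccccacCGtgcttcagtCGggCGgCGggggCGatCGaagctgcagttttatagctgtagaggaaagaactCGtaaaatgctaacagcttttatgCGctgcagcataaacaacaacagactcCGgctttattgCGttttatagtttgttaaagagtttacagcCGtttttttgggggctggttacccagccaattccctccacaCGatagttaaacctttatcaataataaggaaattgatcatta
Nr2e1: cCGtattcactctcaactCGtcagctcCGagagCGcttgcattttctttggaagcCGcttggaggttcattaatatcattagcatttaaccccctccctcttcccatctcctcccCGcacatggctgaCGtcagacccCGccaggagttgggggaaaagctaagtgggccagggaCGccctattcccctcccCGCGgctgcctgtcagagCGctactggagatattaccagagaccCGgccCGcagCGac
Six3: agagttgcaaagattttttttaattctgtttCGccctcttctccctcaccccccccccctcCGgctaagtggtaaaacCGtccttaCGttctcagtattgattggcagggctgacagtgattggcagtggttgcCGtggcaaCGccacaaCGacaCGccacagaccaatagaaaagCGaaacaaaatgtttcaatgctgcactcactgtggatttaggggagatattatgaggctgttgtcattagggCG

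CpG dinucleotides numbered 3 in the Hoxa9 window, 12 in that of Hoxb8, 15 in that of Nr2e1 and 10 in that of Six3. A promoter window with a GC content of at least 50% and an observed over expected CpG ratio of at least 0.6 was counted as CpG-rich. By this measure 4 of the 13 higher Hox genes with a window in the table were CpG-rich (30.8%) and 8 of the 10 lower forebrain and midbrain factors (80%), beside 31.4% of all 27018 windows and 66.1% of the 9952 of genes tested. The TATA box motif TATAAA, searched on both strands, was in 2 of the 13 Hox windows, that of Hoxb8 among them, and in 1 of the 10 forebrain and midbrain windows. It was in 13.0% of all windows and in 5.81% of those of genes tested. The Hox and Pbx motif TGATTNAT was in 1 of the 13, in 0 of the 10, in 2.99% of all windows and in 1.16% of those of genes tested. These matches describe letters in the windows and no binding was measured.

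In the A cluster the highest values were reached by Hoxa5 to Hoxa9, which mark the neck and trunk. Hoxa9 (chr6:52223100-52231089 on GRCm38, minus strand) had no count in any brain NSC sample and stood at 135, 132 and 131 cpm in the DRG pNSCs, at least 467-fold higher when set against the floor of 3 counts per library. Hoxa5 was at 1.12, 0.815 and 0.886 cpm in brain NSCs and at 120, 121 and 115 cpm in DRG pNSCs, a log2 fold change of 6.96 ± 0.10. Hoxa7 had 2 counts over the 3 brain NSC samples and was at 75.2, 70.7 and 82.1 cpm in the DRG pNSCs, a ratio of 1207 with a 95% counting interval of 334 to 9973. All DRG samples lay far above all brain samples for these genes.

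Other members of the A cluster were also higher. Hoxa6 was at 33.5, 37.7 and 33.8 cpm in DRG pNSCs, with 1 count in the brain NSCs, and Hoxa10 was at 23.9, 24.9 and 21.7 cpm, also with 1 count in the brain NSCs. Hoxa2, Hoxa3 and Hoxa4, which pattern the hindbrain and neck, were at 0.498 ± 0.178, 0.596 ± 0.121 and 0.0635 ± 0.0554 cpm in brain NSCs and at 13.3 ± 1.00, 9.91 ± 1.98 and 3.08 ± 0.406 cpm in DRG pNSCs. Hoxa11 had 1 count and Hoxa13 none over the 3 DRG pNSC samples, where 3 counts per library would be up to 0.306 cpm, so the posterior end of the cluster was not detected above that limit.

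The B cluster was led by Hoxb8 (chr11:96281905-96285315, plus strand), with no count in the brain NSCs and 47.4, 51.6 and 49.0 cpm in the DRG pNSCs, at least 174-fold higher. Its neighbour Hoxb9 was at 1.66, 1.02 and 1.30 cpm in DRG pNSCs and had no count in brain NSCs, at least 4.66-fold higher. Hoxb2 to Hoxb7 lay between 3.19 and 10.2 cpm on average in DRG pNSCs and between 0 and 0.540 cpm in brain NSCs.

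In the C cluster, 7 of the 8 genes tested had no count in any brain NSC sample and Hoxc8 had 1. Hoxc8, Hoxc9 and Hoxc10, which act in the trunk and at the trunk-to-lumbar transition, were at 26.9 ± 1.47, 23.4 ± 3.10 and 20.7 ± 1.21 cpm in DRG pNSCs (SD, n = 3), and Hoxc9 and Hoxc10 were at least 82.2-fold and 72.7-fold higher. Hoxc6 was at 14.9, 14.9 and 16.6 cpm in DRG pNSCs and at least 54.4-fold higher. Hoxc11, Hoxc12 and Hoxc13 were at 2.73 ± 0.402, 2.49 ± 0.679 and 2.19 ± 0.500 cpm, above the limit of detection in every DRG pNSC sample.

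Only 3 genes of the D cluster were tested. Hoxd8 was at 30.8, 29.6 and 28.7 cpm, Hoxd9 at 6.48, 7.03 and 5.98 cpm and Hoxd4 at 3.68, 3.56 and 2.99 cpm in DRG pNSCs, and all had no count in the brain NSCs. Hoxd10 had 2 counts and Hoxd11, Hoxd12 and Hoxd13 had none over the DRG pNSC samples. Many Hox genes overlap a neighbour or an antisense transcript in their exons, among them Hoxa2, Hoxa3, Hoxa4, Hoxa7, Hoxb2, Hoxb3 and Hoxd4 at 10% or more of exon length, and no source used here says whether counting used strand, so these reads cannot be assigned with certainty.

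**Figure D2:**
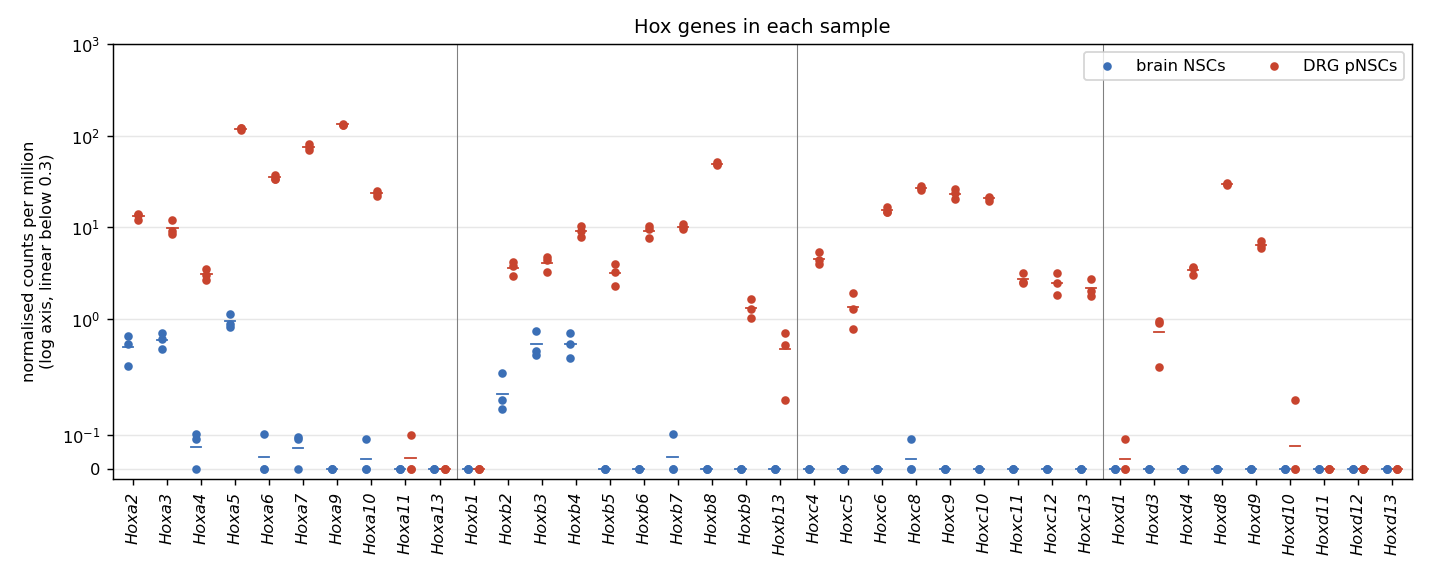
Level of 38 Hox genes in every sample, in TMM-scaled cpm (log axis, linear below 0.3), with a line at each group mean. The DRG pNSC samples lie above the brain NSC samples at the 27 tested genes shown, with peaks at Hoxa5 to Hoxa9, Hoxb8, Hoxc8 to Hoxc10 and Hoxd8.

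The forebrain and midbrain transcription factors went the other way. Of 34 such factors, 15 were tested, 14 were lower in DRG pNSCs, beside 5.99% of all genes tested, and none was higher; these, too, passed the filter on low counts mainly through brain NSCs. Summed, the 34 took 293 to 305 cpm in brain NSCs and 29.0 to 30.9 cpm in DRG pNSCs, and the median log2 fold change with absent genes at their bound was -3.55 (-5.46 as fitted). Nr2e1, the nuclear receptor Tlx of adult forebrain NSCs (chr10:42561963-42583632, minus strand), was at 40.2, 41.7 and 40.7 cpm in brain NSCs and had no count in any DRG pNSC sample, at least 141-fold lower.

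Six3, a homeobox factor of the anterior forebrain and eye (chr17:85613608-85629302, plus strand), was at 63.8, 65.9 and 67.3 cpm in brain NSCs and had 1 count over the DRG pNSC samples, a ratio of 2055 with a 95% counting interval of 368 to 81202. Its antisense neighbour Six3os1 (chr17:85600651-85618398, minus strand) was at 157, 162 and 158 cpm in brain NSCs and had no count in DRG pNSCs, at least 549-fold lower. The pair overlaps in sequence, so part of these reads could belong to either gene. Emx2, a cortical patterning factor (chr19:59458372-59465357, plus strand), was at 35.3, 35.3 and 34.4 cpm and at 0.350, 0.102 and 0.0997 cpm (-7.42 ± 0.20).

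Not every forebrain factor was lost. Lhx2, a LIM factor of the cortex and eye named here after its values were seen, was at 67.0 cpm on average in brain NSCs and 23.3 cpm in DRG pNSCs, a log2 fold change of -1.52. En1, a factor of the midbrain and hindbrain border also named after its values were seen, was the only tested member that was not lower, with a log2 fold change of 0.53 that was short of the threshold.

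Factors of the dorsal and ventral neural tube and spinal cord split by gene. Of 31 members, 19 were tested, 7 were higher and 5 lower in DRG pNSCs, beside 2.92% higher and 5.99% lower of all genes tested, and the summed level was 3145 to 3173 cpm in brain NSCs and 3112 to 3151 cpm in DRG pNSCs. Pax3, a factor of dorsal neural tube and neural crest (chr1:78101267-78197134, minus strand), had no count in brain NSCs and was at 11.2, 8.76 and 9.37 cpm in DRG pNSCs, at least 34.4-fold higher. Its relative Pax7, with the same dorsal expression, had 1 count in the brain NSCs and was at 7, 8.15 and 6.48 cpm in DRG pNSCs, a ratio of 229 with an interval of 40.6 to 9066.

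The ventral factor Nkx6-1, of motor neuron and interneuron progenitors, was also higher, at 0.750, 0.509 and 0.532 cpm in brain NSCs and 9.19, 9.78 and 8.67 cpm in DRG pNSCs (3.92 ± 0.24). Dorsal and ventral factors were therefore present in the same bulk samples, which do not tell whether in the same cells. Zic1, a dorsal midline factor, went down, from 5.91, 4.08 and 4.88 cpm in brain NSCs to 1 count over the DRG pNSC samples, a ratio of 156 with an interval of 27.5 to 6183. Other calls, named after their values were seen, included Irx2, Irx3, Irx5 and Msx1 as higher and Zic2, Zic5 and Gli2 as lower.

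**Figure D3:**
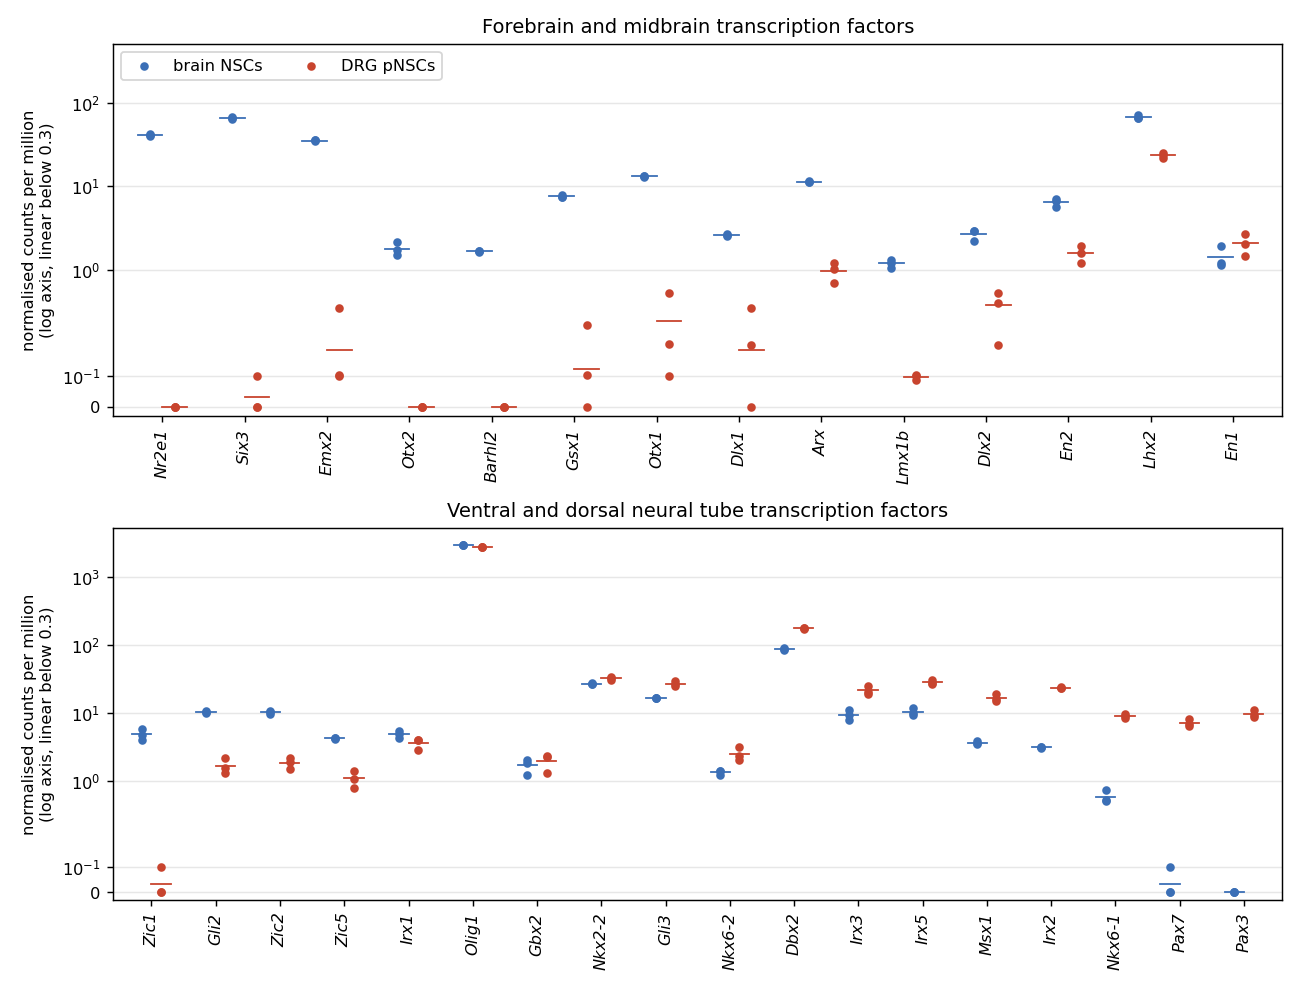
Level of 14 tested forebrain and midbrain factors (top) and 18 tested neural tube factors (bottom) in every sample, in TMM-scaled cpm (log axis, linear below 0.3), ordered by fold change. Nr2e1 has no count in any DRG pNSC sample, and Pax3 has none in any brain NSC sample.

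Of 18 genes for synthesis, breakdown and reception of retinoic acid, the signal that switches on anterior Hox genes in the embryo, 8 were tested. None was higher and 1 was lower, beside 2.92% higher and 5.99% lower of all genes tested. The number lower was 2 without brain NSC replicate 1 or in a fit with 2 more groups, and 0 under glmTreat. The highest expressed member of the list, the receptor Rxra, was at 50.9, 52.9 and 54.6 cpm in brain NSCs and 53.4, 51.0 and 52.9 cpm in DRG pNSCs, and the samples overlapped (-0.01 ± 0.05, adjusted p = 0.894).

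Of 14 tested factors that mark early or late stages of stem cell life (timing factors), 5 were higher in DRG pNSCs, beside 2.92% of all genes tested, none was lower and 9 were not called. Hmga2, a chromatin protein of young stem cells, was at 8.90, 6.52 and 6.91 cpm in brain NSCs and at 48.2, 49.3 and 48.2 cpm in DRG pNSCs (2.70 ± 0.09, adjusted p = 3.52e-61). Its relative Hmga1, another of the 5, was at 12.9 ± 1.10 and 39.4 ± 0.853 cpm, but a near-identical copy, Hmga1b, was at 8.67 ± 0.553 cpm in brain NSCs and 0.134 ± 0.116 cpm in DRG pNSCs, and the sum of both rose by 0.87 on the log2 scale, short of 2-fold.

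Igf2bp3, an RNA-binding protein of fetal tissues, was at 1.12, 0.408 and 0.798 cpm in brain NSCs and at 4.73, 5.91 and 5.88 cpm in DRG pNSCs (2.78 ± 0.26). Nr2f2, the orphan receptor COUP-TFII, was at 6.00, 6.11 and 6.56 cpm and 31.7, 35.3 and 33.0 cpm (2.41 ± 0.10). For both genes all DRG pNSC samples exceeded all brain NSC samples, and 63% of all genes tested had no overlap between the groups.

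Imprinted genes, expressed from 1 parental allele and often linked to growth, were higher for 6 of the 24 tested, beside 2.92% of all genes tested, and lower for none. Mest, a maternally imprinted hydrolase, was at 523, 533 and 534 cpm in brain NSCs and 1140, 1128 and 1108 cpm in DRG pNSCs (1.09 ± 0.02). Peg10, a gene derived from a retrotransposon, was at 87.6 ± 3.29 and 247 ± 8.29 cpm (1.5 ± 0.03). The growth inhibitors Grb10 and Cdkn1c were at 3.70 ± 0.451 and 12.1 ± 0.662 cpm and at 1.25 ± 0.303 and 5.85 ± 1.5 cpm, with log2 fold changes of 1.71 ± 0.14 and 2.19 ± 0.23.

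Several astrocyte genes with high levels in brain NSCs were low in DRG pNSCs. Of 21 astrocyte and radial glia genes tested, 8 were lower, beside 5.99% of all genes tested, and 1 was higher; the median log2 fold change was -0.49, beside 0.00346 over all genes. Gfap, the astrocyte intermediate filament (chr11:102887336-102900912, minus strand), was at 47.2, 52.7 and 46.3 cpm in brain NSCs and at 1.05, 0.916 and 0.498 cpm in DRG pNSCs (-5.85 ± 0.14, adjusted p = 9.89e-76). Aldh1l1, a folate enzyme used as an astrocyte marker, was at 997, 1021 and 1027 cpm and at 113, 120 and 123 cpm (-3.10 ± 0.02), and Apoe, the lipid carrier, at 213, 234 and 223 cpm and 32.9, 31.7 and 34.8 cpm (-2.75 ± 0.04).

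The exception was Hopx, a homeodomain protein of outer radial glia and quiescent stem cells, at 13.4 ± 0.401 cpm in brain NSCs and 38.0 ± 0.831 cpm in DRG pNSCs (1.5 ± 0.08). Mlc1, a membrane protein of astrocyte endfeet, was among the most expressed lower genes, at 825, 845 and 830 cpm in brain NSCs and 372, 387 and 396 cpm in DRG pNSCs (-1.12 ± 0.02).

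Neural crest and Schwann cell genes mark cells that a ganglion holds. Of 26 members, 17 were tested, 8 were lower in DRG pNSCs than in brain NSCs and 1 was higher, beside 5.99% lower and 2.92% higher of all genes tested. Sox10, which specifies neural crest and glia of the periphery and also oligodendrocytes, was at 13.9, 15.5 and 16.2 cpm in brain NSCs and at 0.350, 0.815 and 0.997 cpm in DRG pNSCs (-4.41 ± 0.20). Twist1, a factor of migrating crest and mesenchyme, was at 7.69, 8.87 and 7.36 cpm in brain NSCs and had 3 counts over the DRG pNSC samples, a ratio of 82.7 with an interval of 28.0 to 404.

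Dhh, the hedgehog ligand of Schwann cells, fell from 16.2 ± 0.540 to 0.476 ± 0.152 cpm (-5.04 ± 0.21), and Cdh19, a cadherin of Schwann cell precursors, from 17.3 ± 2.01 to 5.21 ± 0.0704 cpm (-1.72 ± 0.12). The exons of Dhh overlap other transcripts, Rhebl1 among them, at 25.2% of their length. Ednrb, the endothelin receptor of crest and astrocytes, was at 839, 847 and 852 cpm in brain NSCs and at 279, 273 and 273 cpm in DRG pNSCs (-1.62 ± 0.02). Of the genes that crest shares with dorsal neural tube, Pax3 was higher, as given above.

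Genes of the ganglion neurons were mostly at or near 0. Of 24 sensory and autonomic neuron genes, 5 had enough counts to be tested, and 12 had 3 counts or fewer in each of the 6 samples. Of the 5 tested, 1 was called higher and 1 lower (2 lower without DRG pNSC replicate 1), beside 2.92% higher and 5.99% lower of all genes tested. Runx1, a factor of pain-sensing neurons that other cells also use, was at 1.22, 1.53 and 1.95 cpm in brain NSCs and at 8.23, 8.55 and 8.67 cpm in DRG pNSCs (2.42 ± 0.19). Ntrk2, the BDNF receptor, which glia express as well, was at 838, 824 and 818 cpm in brain NSCs and 226, 215 and 222 cpm in DRG pNSCs (-1.90 ± 0.02).

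Oligodendrocyte lineage genes gave 1 higher and 4 lower members of 17 tested, beside 2.92% higher and 5.99% lower of all genes tested. Cspg4, the proteoglycan NG2 of oligodendrocyte progenitors and pericytes, was at 84.8, 90.7 and 87.5 cpm in brain NSCs and 199, 216 and 209 cpm in DRG pNSCs (1.25 ± 0.04). Gpr17, a receptor of differentiating oligodendrocytes, was at 45.6, 38.9 and 47.3 cpm and 16.8, 16.8 and 20.1 cpm (-1.30 ± 0.07). Sox10, also a member, is given above with the neural crest genes.

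Pan-neuronal genes were low in both lines apart from a few, with 2 of 19 tested members higher and 5 lower, beside 2.92% higher and 5.99% lower of all genes tested. A positive log2 fold change was found for 8 and a negative one for 11. The list summed to 1699 to 1706 cpm in brain NSCs and 2395 to 2459 cpm in DRG pNSCs, so its summed level was higher in DRG pNSCs. Elavl4, the neuronal RNA-binding protein HuD, was higher, at 12.6, 11.8 and 11.3 cpm in brain NSCs and 41.8, 37.7 and 36.3 cpm in DRG pNSCs (1.70 ± 0.08). Dcx, the microtubule protein of migrating neuroblasts, was lower, at 10.0, 10.2 and 10.2 cpm and 4.20, 4.38 and 4.09 cpm (-1.26 ± 0.14). The neurofilaments Nefl and Nefm were lower too, with log2 fold changes of -1.37 ± 0.22 and -1.17 ± 0.12, and the exons of these neighbours overlap other annotated transcripts by more than 10%.

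Mesenchymal genes, which mark connective tissue cells that could grow beside pNSCs, were lower for 10 and higher for 2 of 16 tested, beside 5.99% lower and 2.92% higher of all genes tested, and their summed level was 343 to 352 cpm in brain NSCs and 151 to 168 cpm in DRG pNSCs. Col5a2, a fibrillar collagen chain, was at 149, 143 and 147 cpm in brain NSCs and 13.4, 15.5 and 17.4 cpm in DRG pNSCs (-3.25 ± 0.06). Bgn, the matrix proteoglycan biglycan, was at 5.53, 5.60 and 4.25 cpm and had 2 counts over the DRG pNSC samples, a ratio of 79.8 with an interval of 21.7 to 664. Tbx18, a T-box factor of mural and mesenchymal cells, was higher, at 1.06 ± 0.319 and 11.7 ± 2.00 cpm (3.43 ± 0.20), and its exons overlap another transcript by at least 10%.

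Markers of other cells were scarce. Of 14 leukocyte genes 1 was tested, the lysosomal protein Cd68, at 2.30 ± 0.458 and 2.72 ± 0.116 cpm (adjusted p = 0.382), and the whole list summed to 2.34 to 3.63 cpm in brain NSCs and 3.26 to 3.33 cpm in DRG pNSCs. Muscle genes summed to 5.81 to 7.64 cpm and 3.41 to 4.38 cpm, with 4 of 13 tested and 2 lower, beside 5.99% of all genes tested. Their highest member Myh8, a myosin heavy chain, did not pass the test (-0.40 ± 0.29, adjusted p = 0.23). Keratinocyte genes summed to 24 to 24.7 cpm and 20.6 to 23.2 cpm, with 2 of 11 tested and none called (1 higher without DRG pNSC replicate 1); Lor, the cornified envelope protein loricrin, was at 13.3 ± 0.479 and 10.9 ± 1.20 cpm.

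Of the 15 endothelial genes, 5 were tested and 2 were higher in DRG pNSCs, beside 2.92% of all genes tested. Both calls were lost under glmTreat. Plvap, a protein of endothelial fenestrae, was at 8.81, 7.23 and 10.7 cpm in brain NSCs and 19.6, 22.5 and 20.5 cpm in DRG pNSCs (1.21 ± 0.10), and Egfl7, a secreted vascular protein, at 1.11 ± 0.198 and 3.20 ± 0.172 cpm (1.53 ± 0.27). The list summed to 34.8 to 36.2 cpm in brain NSCs and 49.2 to 52.8 cpm in DRG pNSCs, and its part in other results was not tested.

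Of 43 tested extracellular matrix and adhesion genes, 14 were lower and 3 higher in DRG pNSCs, beside 5.99% and 2.92% of all genes tested. Col4a1, a collagen chain of basement membranes, was at 112, 118 and 115 cpm in brain NSCs and 13.8, 14.4 and 11.2 cpm in DRG pNSCs (-3.13 ± 0.06), and its partner Col4a2 was at 26.6 ± 2.78 and 5.46 ± 1.94 cpm (-2.30 ± 0.12). Col4a6, on the X chromosome, was at 27.8, 28.7 and 29.1 cpm and had 4 counts over the DRG pNSC samples, a ratio of 223 with an interval of 86.9 to 821. Lama2, a laminin chain, was at 5.61 ± 1.93 and 0.416 ± 0.207 cpm (-3.72 ± 0.31).

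Itga9, the integrin chain that binds tenascin C, moved up, from 11.8, 14.2 and 11.7 cpm in brain NSCs to 94.9, 90.1 and 93.1 cpm in DRG pNSCs (2.89 ± 0.07). Spon1, the floor plate matrix protein spondin 1, was among the most expressed higher genes, at 172, 176 and 174 cpm and 775, 759 and 760 cpm (2.14 ± 0.02). No sample of a group overlapped the other group for either gene, as for 63% of all genes tested.

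Cadherins and protocadherins outside the clustered families were mostly short of the thresholds, with 1 higher and 2 lower of 27 tested, beside 2.92% higher and 5.99% lower of all genes tested. Celsr1, a planar polarity cadherin of the neural tube, was at 11.6, 15 and 15.2 cpm in brain NSCs and 46.9, 45.4 and 48.6 cpm in DRG pNSCs (1.75 ± 0.08). Cdh11, a cadherin of mesenchyme and glia, was at 62.0 ± 3.12 and 22.9 ± 1.18 cpm (-1.44 ± 0.06).

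Receptors for glutamate and GABA were lower for 8 and higher for 2 of 32 tested, beside 5.99% lower and 2.92% higher of all genes tested, and the list summed to 4870 to 4914 cpm in brain NSCs and 2942 to 2988 cpm in DRG pNSCs. The AMPA receptor subunit Gria1 was at 97.1, 96.9 and 99.6 cpm in brain NSCs and 1.05, 0.815 and 1.20 cpm in DRG pNSCs (-6.56 ± 0.11, adjusted p = 2.03e-96), and its partner Gria2 was at 283 ± 6.12 and 59.5 ± 1.01 cpm (-2.25 ± 0.04). The NMDA receptor subunits Grin2c and Grin2b fell as well, from 19.5 ± 1.10 to 0.572 ± 0.249 cpm and from 11.1 ± 0.820 to 0.788 ± 0.277 cpm.

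Among 55 tested axon guidance and Eph genes, 4 were higher and 6 lower, beside 2.92% and 5.99% of all genes tested. Unc5a, a netrin receptor that repels spinal axons, was at 4.69, 5.30 and 4.08 cpm in brain NSCs and 27.7, 33.9 and 28.7 cpm in DRG pNSCs (2.68 ± 0.11), and the receptor Epha7 at 8.14 ± 1.08 and 28.1 ± 0.894 cpm (1.78 ± 0.10). Ntn4, a laminin-binding netrin, was at 105, 105 and 101 cpm and 23, 25.4 and 24.3 cpm (-2.10 ± 0.05), and the ephrin Efnb2 at 22.3 ± 0.542 and 5.67 ± 0.829 cpm (-1.99 ± 0.11).

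In the FGF and EGF families and their feedback genes, 3 of 34 tested members were higher and 3 lower, beside 2.92% higher and 5.99% lower of all genes tested. Dusp4, a phosphatase that limits ERK signalling, was at 8.25, 9.17 and 8.51 cpm in brain NSCs and 68.8, 73.4 and 72.1 cpm in DRG pNSCs (3.05 ± 0.07, adjusted p = 1.00e-74). The receptor Fgfr2 was lower, at 35.9 ± 1.36 and 13.7 ± 0.774 cpm (-1.38 ± 0.08), as was the intracellular factor Fgf12, at 27.7 ± 1.72 and 9.86 ± 0.705 cpm. Its relative Fgf13 was called higher (1.03 ± 0.10), and that call was lost without brain NSC replicate 1, at a log2 fold change of 0.96.

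Of 32 tested genes of the BMP and TGF-beta pathway, 2 were higher and 3 lower, beside 2.92% higher and 5.99% lower of all genes tested. The ligand Bmp3 was at 0.665 ± 0.117 and 4.54 ± 0.121 cpm (2.76 ± 0.28) and the co-receptor Tgfbr3 at 1.19 ± 0.834 and 3.50 ± 0.475 cpm (1.55 ± 0.27). The receptor Bmpr1b was at 111, 105 and 110 cpm in brain NSCs and 48.1, 42.9 and 44.3 cpm in DRG pNSCs (-1.26 ± 0.05), and the BMP target Id4 at 9.93 ± 1.43 and 3.32 ± 0.232 cpm (-1.58 ± 0.16).

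The Wnt pathway had 3 higher and 6 lower members of 32 tested, beside 2.92% higher and 5.99% lower of all genes tested. The secreted inhibitors Sfrp1 and Sfrp2 were at 32.2 ± 1.21 and 13.0 ± 3.76 cpm and at 8.56 ± 1.38 and 2.86 ± 0.260 cpm, with log2 fold changes of -1.30 ± 0.09 and -1.56 ± 0.17. The ligand Wnt5b was lower, from 14.9 ± 1.20 to 5.94 ± 0.735 cpm, and so was Ror1, a receptor for Wnt5 ligands, from 5.49 ± 0.462 to 2.29 ± 0.315 cpm.

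Of 11 tested Shh pathway genes only Gli2, the activating effector, was called, at 10.0, 10.7 and 10.5 cpm in brain NSCs and 1.58, 1.32 and 2.19 cpm in DRG pNSCs (-2.61 ± 0.18). Notch genes gave 2 lower of 20 tested: Notch3, a receptor of progenitors and mural cells, at 169, 171 and 170 cpm and 79.4, 81.7 and 77.4 cpm (-1.09 ± 0.04), and Mfng, a glycosyltransferase that modifies Notch, at 8.11 ± 0.589 and 3.64 ± 0.466 cpm (-1.15 ± 0.16). None of either list was called higher, and the shares over all genes tested were 2.92% higher and 5.99% lower.

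Genes of the cell cycle were nearly alike. Of 40 tested, none was higher at 2-fold and 1 was lower, beside 2.92% higher and 5.99% lower of all genes tested. A positive log2 fold change was found for 34, and the median was 0.38, beside 0.00346 over all genes. The call was Ccnd2, the D-type cyclin of neural progenitors, at 1439, 1463 and 1446 cpm in brain NSCs and 709, 686 and 695 cpm in DRG pNSCs (-1.06 ± 0.02). Of 21 tested inhibitors and p53 targets, 2 were higher (4 without brain NSC replicate 1) and 1 was lower, beside 2.92% higher and 5.99% lower of all genes tested. Among the higher was Pmaip1, the death protein Noxa, at 6.90 ± 0.535 and 15.2 ± 1.09 cpm (1.14 ± 0.12). The lower was Cdkn2b, at 24.3 ± 1.46 and 12.1 ± 0.513 cpm. At a log2 fold change of -1.01 ± 0.09, Cdkn2b was not called under upper-quartile scaling (just short of the limit), in a fit with 2 more groups (-0.99), without DRG pNSC replicate 2 (-0.98) or without brain NSC replicate 3 (-0.96).

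None of the 23 cholesterol synthesis genes or the 18 tested MHC class I and antigen presentation genes was called, beside 8.91% of all genes tested. Of the 23 cholesterol synthesis genes, 20 had a positive log2 fold change and 3 a negative one, with a median of 0.27. This list summed to 5180 to 5207 cpm in brain NSCs and 5852 to 5914 cpm in DRG pNSCs. Its highest expressed member Hmgcs1, an early enzyme, was among the 3, at 1430 ± 23.4 cpm in brain NSCs and 1291 ± 11.9 cpm in DRG pNSCs. Canx, the chaperone calnexin, was at 974 ± 23.6 and 947 ± 24.3 cpm. Of 18 tested interferon response genes 2 were higher and 4 lower, beside 2.92% higher and 5.99% lower of all genes tested. The guanylate-binding protein Gbp3 was at 45.9, 45.8 and 45.7 cpm and 9.89, 10.7 and 8.57 cpm (-2.24 ± 0.08), Ifi27 at 34.9 ± 0.749 and 14.5 ± 1.10 cpm (-1.27 ± 0.08), and Tmem173, the DNA sensor adaptor STING, was higher, at 11.1 ± 0.919 and 29.0 ± 2.39 cpm (1.38 ± 0.09). Rsad2, an antiviral enzyme, was called lower (-1.14 ± 0.23) but not without DRG pNSC replicate 3 (-0.92).

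Motile cilium genes gave 2 higher and 1 lower of 12 tested, beside 2.92% higher and 5.99% lower of all genes tested. The number lower was not stable: it was 4 without DRG pNSC replicate 2, 3 without brain NSC replicate 2 and 2 without any other single sample. Hydin, a protein of the ciliary central pair, was at 1.87, 1.32 and 2.13 cpm in brain NSCs and 13.2, 15.2 and 12.2 cpm in DRG pNSCs (2.90 ± 0.17), and the dynein chain Dnah1 at 1.21 ± 0.380 and 2.93 ± 0.364 cpm (1.27 ± 0.27).

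Set side by side, the median log2 fold change of the tested members was 0.53 for the timing factors, 0.24 for the imprinted genes, 0.71 for the neural tube factors and 0.38 for the cell cycle genes. It was -1.5 for the mesenchymal genes, -0.53 for the neural crest and Schwann cell genes, -0.52 for the oligodendrocyte genes, -0.37 for the glutamate and GABA receptor genes, -0.37 for the NSC markers and -0.30 for the matrix and adhesion genes, beside 0.00346 over all genes tested.

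**Figure D4:**
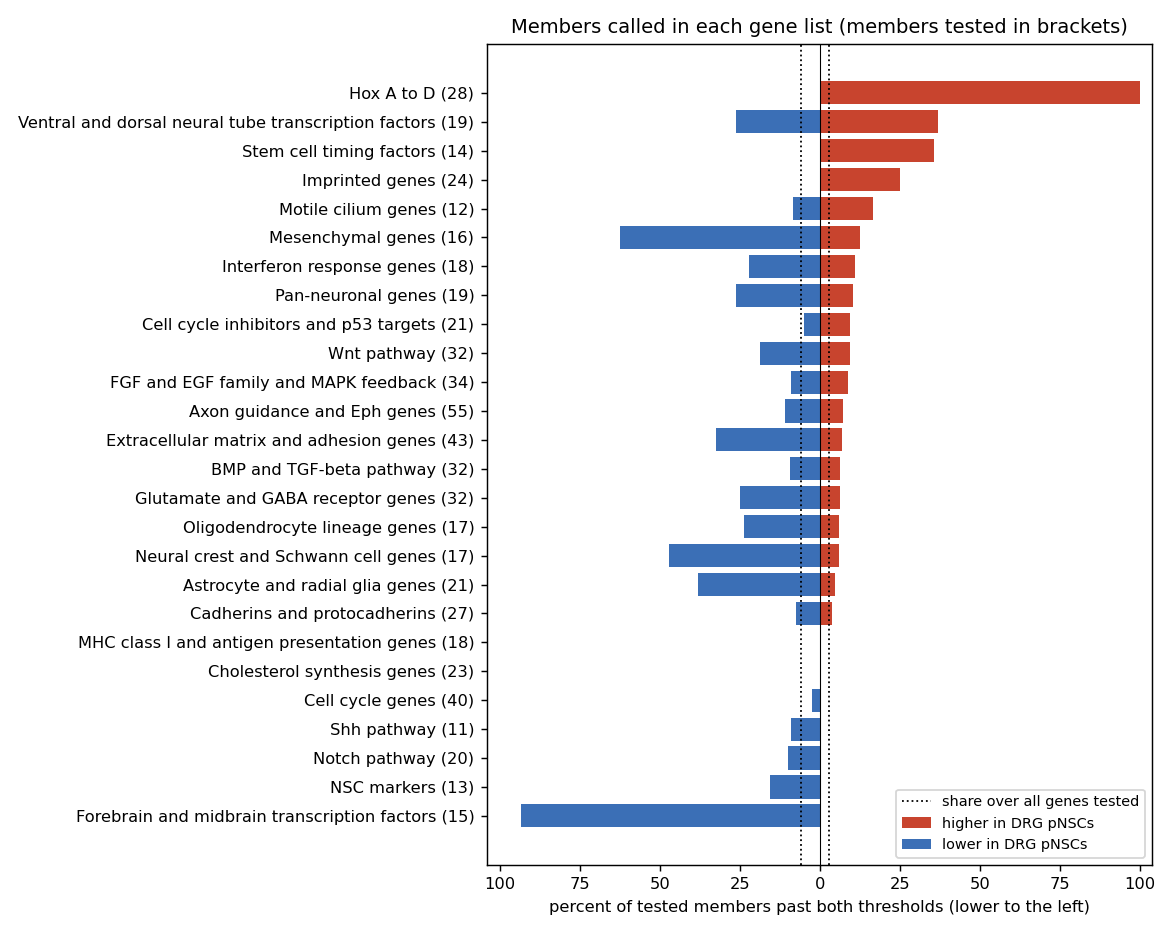
Percent of the tested members of the gene lists shown that were higher (red, to the right) or lower (blue, to the left) in DRG pNSCs past both thresholds, with the number of members tested in brackets and dotted lines at the shares over all genes tested (2.92% higher, 5.99% lower). The Hox genes and the forebrain and midbrain factors stand at the extremes, at 28 of 28 higher and 14 of 15 lower.

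Beyond the lists, the rule named further genes with large changes. Rab26, a small GTPase of secretory granules (chr17:24527241-24534210, minus strand), was at 0.562, 0.611 and 0.709 cpm in brain NSCs and 98.4, 104 and 106 cpm in DRG pNSCs (7.32 ± 0.12, adjusted p = 2.97e-98). Pcsk1, the protease that cleaves prohormones, was at 0.469, 0.408 and 0.355 cpm and 32.9, 29.9 and 32.9 cpm (6.25 ± 0.18), and Rab3b, a GTPase of regulated exocytosis, at 2.27 ± 0.424 and 33.5 ± 1.38 cpm (3.88 ± 0.13). The exons of Rab26 overlap another transcript by at least 10%. AI506816, a transcript of unclear function, was at 10.7 ± 0.370 and 170 ± 2.42 cpm (3.99 ± 0.06), and Anxa3, a membrane-binding annexin, was among the largest falls, at 35.7, 33.6 and 29.3 cpm in brain NSCs and 0.613, 0.713 and 0.399 cpm in DRG pNSCs (-5.80 ± 0.17). AC165951.1, an unnamed transcript, was at 25.9, 26.2 and 23.2 cpm and had no count in DRG pNSCs, at least 86.8-fold lower.

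Xist, the RNA that coats the inactive X chromosome (chrX:103460366-103483254, minus strand), had 3 counts over the brain NSC samples and was at 147, 152 and 151 cpm in the DRG pNSCs, a ratio of 1586 with an interval of 542 to 7692. Transcripts of Y-linked genes were present in both lines: none of the other 8 sex-linked genes tested was called, Eif2s3y, Kdm5d, Ddx3y and Uty, named after their values were seen, among them. Eif2s3y, a translation factor gene, was at 84.7 cpm on average in brain NSCs and 111 cpm in DRG pNSCs. Whether a line held cells of 1 sex or of both was not tested.

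Several of the largest falls were near-identical copies of other genes, for which short reads can be assigned to the wrong member. Rps3a3 was at 213, 205 and 198 cpm in brain NSCs and 1.66, 1.73 and 2.09 cpm in DRG pNSCs (-6.81 ± 0.08), while its parent Rps3a1, a ribosomal protein gene, was at 225 ± 4.56 and 550 ± 5.69 cpm, and the sum of the family differed by 0.36 on the log2 scale. The copies Rps15a-ps8, Atp6v0c-ps2, Prdx2-ps1 and Pcna-ps2 were at 35.8 ± 3.51, 33.6 ± 0.513, 23 ± 2.07 and 51.4 ± 1.82 cpm in brain NSCs and at 0.0339 ± 0.0588, 0.154 ± 0.137, 0.197 ± 0.106 and 0.544 ± 0.0474 cpm in DRG pNSCs. Summed with their parents Rps15a, Atp6v0c, Prdx2 and Pcna the log2 differences were 0.36, 0.08, -0.29 and 0.24, all short of 2-fold. These falls are therefore given as uncertain.

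Of the most expressed higher genes, mt-Rnr2, a mitochondrial ribosomal RNA, was at 682, 662 and 712 cpm in brain NSCs and 1764, 1761 and 1764 cpm in DRG pNSCs (1.36 ± 0.02), and Rplp0, a ribosomal stalk protein, at 468 ± 8.34 and 1162 ± 16 cpm (1.31 ± 0.02). By chromosome, the median log2 fold change of tested genes lay between -0.03 and 0.05 on the 20 chromosomes, and comparing single samples it lay between -0.05 and 0.05. Most genes were not called, so these medians do not show where the called genes lie. The share of tested genes called ran from 5.55% on chromosome 7 to 17.3% on chromosome 18. Of the 364 genes tested on chromosome 18, 11 were higher and 52 lower. The clustered protocadherins, given under the other observations, lie there. They gave 16 lower genes in the Pcdhb cluster, 10 lower and 1 higher in the Pcdhg cluster and 2 higher in the Pcdha cluster. The share on chromosome 18 therefore rests in part on these neighbouring genes.

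DRG pNSCs were next set against the Wnt1Cre-mTmG tail pNSCs, 3 samples of a line derived in the same way from postnatal tail, in 1 fit with the brain NSCs. It shows where DRG pNSCs differ from the pNSCs derived most like them. The tail pNSC libraries held 19648349 to 22548268 counts, beside 9808246 to 11431445 in the DRG pNSC and brain NSC libraries. The number of genes called here is thus at another depth than that against brain NSCs. The part of depth in it was not tested. Of 13182 genes tested, 2335 (17.7%) differed, 1020 (7.74%) higher and 1315 (9.98%) lower in DRG pNSCs. Of 34 Hox genes tested, 13 were higher and 10 lower in DRG pNSCs, and each line held part of the clusters that the other lacked. Levels in this fit are scaled over 9 samples and differ slightly from those above.

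The genes higher in DRG pNSCs included those of the middle of the A cluster and most of the C cluster. Hoxa5 was at 118 ± 3.08 cpm in DRG pNSCs and 4.68 ± 0.273 cpm in tail pNSCs (4.66 ± 0.06), Hoxa7 at 75.5 ± 5.73 and 3.07 ± 0.510 cpm (4.61 ± 0.08), and Hoxa9 at 132 ± 1.82 and 23.4 ± 0.941 cpm (2.50 ± 0.04). Much of the C cluster was low in tail pNSCs: Hoxc6, Hoxc8, Hoxc9 and Hoxc10 were at 0.298 ± 0.186, 0.0322 ± 0.0281, 0.565 ± 0.141 and 0.896 ± 0.0748 cpm there, and at 15.4 ± 1.01, 26.7 ± 1.45, 23.2 ± 3.08 and 20.5 ± 1.21 cpm in DRG pNSCs.

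The genes lower in DRG pNSCs included the posterior ends of the A and B clusters. In the D cluster they were Hoxd3, Hoxd4, Hoxd9, Hoxd10 and Hoxd11, while Hoxd12 and Hoxd13 were near 0 in both lines. Hoxb9 was at 1.32 ± 0.321 cpm in DRG pNSCs and 83.5 ± 0.0212 cpm in tail pNSCs (-5.96 ± 0.10), and Hoxb13, which acts at the tail end of the axis, at 0.472 ± 0.249 and 52.9 ± 1.74 cpm. Hoxa11, Hoxa13, Hoxd10 and Hoxd11 were at 6.63 ± 0.149, 9.48 ± 1.19, 20.2 ± 0.601 and 10.2 ± 0.403 cpm in tail pNSCs, and had at most 2 counts over the 3 DRG pNSC samples. Hoxb8 and Hoxd8 did not reach the 2-fold threshold, at 49.0 ± 2.13 and 85.8 ± 1.91 cpm and at 29.5 ± 1.05 and 39.8 ± 0.737 cpm.

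Other positional and stem cell genes also separated the peripheral lines. Pax3 and Pax7 were at 9.71 ± 1.27 and 7.16 ± 0.847 cpm in DRG pNSCs and at 0.0316 ± 0.0548 and 0.0150 ± 0.0260 cpm in tail pNSCs, and Nkx6-1 was at 9.15 ± 0.549 and 93.2 ± 1.32 cpm (-3.35 ± 0.06). Sox2 and Sox1 were lower in DRG than in tail pNSCs, at 214 ± 1.30 and 694 ± 5.60 cpm (-1.70 ± 0.02) and at 21.9 ± 1.60 and 88.8 ± 3.15 cpm (-2.01 ± 0.05). Grb10 was at 12.1 ± 0.654 and 608 ± 7.97 cpm and Gfap at 0.816 ± 0.286 and 22.1 ± 0.468 cpm, both lower in DRG pNSCs, while Aldh1l1 was higher, at 118 ± 4.94 and 11 ± 0.124 cpm.

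**Figure D5:**
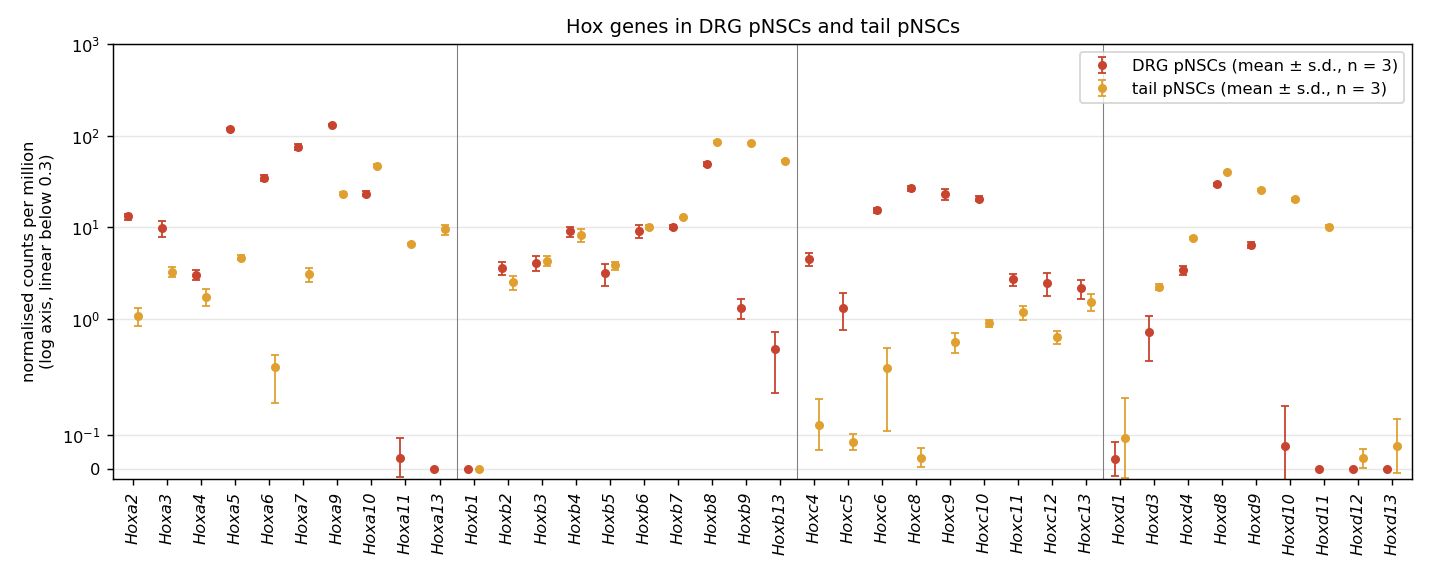
Mean level of 38 Hox genes in DRG pNSCs and tail pNSCs, in TMM-scaled cpm (log axis, linear below 0.3), with the SD over 3 samples as error bars. DRG pNSCs are higher at Hoxa5 to Hoxa9, Hoxc4, Hoxc6 and Hoxc8 to Hoxc12, and tail pNSCs at Hoxb9, Hoxb13, Hoxa11, Hoxa13, Hoxd10 and Hoxd11.

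The difference between DRG pNSCs and brain NSCs was also set against that of another pNSC line with its own brain NSCs: lung pNSCs from postnatal Sox2-GFP mice and Sox2-GFP brain NSCs, 3 samples each, which share no sample with the Wnt1Cre-mTmG experiment. The Sox2-GFP libraries held 17026140 to 22637031 counts, more than those of DRG pNSCs and their brain NSCs. In the Sox2-GFP experiment 2096 of 13474 genes (15.6%) differed, 768 (5.7%) higher and 1328 (9.86%) lower in lung pNSCs. Of the genes tested in both experiments, 329 were higher in DRG pNSCs and 676 in lung pNSCs, and 74 were in both lists, which is 22.5% of the first and 10.9% of the second. An equal number, 74 of the 329, were lower in lung pNSCs. Among lower genes the lists held 674 and 1051, with 263 in both (39.0% and 25.0%), and 68 of the 674 were higher in lung pNSCs.

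As an interaction in 1 fit over the 12 samples, 2265 of 13525 genes (16.7%) had a DRG effect that differed from the lung effect, 1243 (9.19%) in the direction of DRG pNSCs and 1022 (7.56%) in the other. Of 29 Hox genes tested, 16 had a larger effect in DRG pNSCs and none a smaller one. Most passed the filter on low counts through DRG pNSCs alone, so the number supports nothing by itself. The Hox genes not called, among them Hoxa9, Hoxa10 and Hoxc8 to Hoxc13, had no or almost no counts outside DRG pNSCs. For Hoxa9 the fitted interaction was 12.4 with an SE of 24422, so the fit could not estimate it. The lack of a call there does not mean that the DRG effect was like that of lung. In the Sox2-GFP experiment only 7 Hox genes could be tested and 4 were higher than in their brain NSCs. Hoxa5, for example, was at 35.4 ± 2.25 cpm in lung pNSCs and 6.16 ± 0.0415 cpm in Sox2-GFP brain NSCs, and the DRG effect exceeded the lung effect by 4.45 ± 0.20 on the log2 scale. Hoxa9 and Hoxb8 were near 0 in lung pNSCs, at 0.0150 ± 0.0259 and 0.0312 ± 0.0271 cpm.

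Some genes moved in both peripheral lines. Nr2e1 was at 0.152 ± 0.157 cpm in lung pNSCs and at 25.8 ± 0.496 cpm in the Sox2-GFP brain NSCs, and Aldh1l1 was at 54.3 ± 0.739 and 520 ± 2.50 cpm, with an interaction of 0.16 ± 0.04. Hmga2 was at 37.9 ± 1.81 and 6.82 ± 0.255 cpm (interaction 0.23 ± 0.13) and Dusp4 at 39.2 ± 1.82 and 4.41 ± 0.229 cpm (interaction -0.10 ± 0.13), neither of which passed the 2-fold threshold of the interaction.

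Others did not. Pax3 was at 25.7 ± 1.64 cpm in lung pNSCs and 21.7 ± 1.08 cpm in Sox2-GFP brain NSCs, unlike the Wnt1Cre-mTmG brain NSCs, where it had no count. Zic1 was at 119 ± 2.43 and 124 ± 1.40 cpm in that experiment, and Emx2 at 3.65 ± 0.264 and 6.02 ± 0.466 cpm (interaction -6.73 ± 0.31). Brain NSCs of the 2 experiments thus differed at regional genes themselves, and a difference between the effects can come from either side of each comparison.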

How the data were processed

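PolyA-selected RNA was made into libraries with a NEBNext Ultra kit and sequenced single-end. The values are raw counts per gene deposited by the authors, who aligned reads to GRCm38 with HISAT2, annotated them with Cufflinks and counted them with HTSeq, per the labels; no normalization had been applied, and the strand setting and annotation release are not given in the sources used here. From the counts, genes that passed filterByExpr (at least 10 counts, total of at least 15) were kept, scaled by TMM and tested with edgeR 4.0.16 in R 4.3.3 (quasi-likelihood, two-sided, Benjamini-Hochberg over all genes tested). The calls needed an adjusted p below 0.05 and a log2 fold change of 1 or more in either direction. The comparison with brain NSCs held the 6 samples; DRG and tail pNSCs were compared in a fit with the shared brain NSCs, and the lung comparison was an interaction over 12 samples.

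A fold against a group with no counts is a lower bound from 3 counts per library; with counts of at most 3 in each library of a group the ratio has an exact 95% interval, and both cover counting error only. Gene positions and exon overlaps come from GENCODE on GRCm38, matched by symbol (152 of 153 named genes). At 10% or more of exon length, 26 of the named genes overlapped other transcripts. Besides those said above, these include Cdkn1c, Hopx, Mest, Igf2bp3, Sfrp2, Aldh1l1, Xist, Egfl7 and Hmgcs1, whose reads cannot be assigned with certainty either. Promoter windows come from RefSeq on GRCm38.p6 (99 of the named genes matched).

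Named genes were the 15 largest rises and falls past both thresholds with a mean scaled count of at least 100 and no overlap of groups, every Hox gene and NSC marker, up to 4 called members of each other list with a mean scaled count of at least 20 (or its highest expressed member), and the 5 most expressed called genes in each direction; others are said to be named after their values were seen. The comparison, its gene lists and this rule were chosen with earlier results of these data known. The model fits were tested on simulated data in which 200 genes had known changes. Alternatives were DESeq2 1.42.0, RLE and upper-quartile scaling, no filter, a stricter filter (mean count 100), a fit over the 4 groups of the experiment, replicate number as a block, no fold limit, glmTreat and leaving out each sample of the groups compared. Results for some genes are not reported here.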

Additional observations from a re-analysis of the deposited data

Results flagged for a closer look

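The effect of DRG pNSCs against brain NSCs differed from that of Sox2-GFP lung pNSCs against their own brain NSCs for 2265 genes by edgeR's interaction test (adjusted p under 0.05 and at least 2-fold). Among the genes with the largest changes in DRG pNSCs, the DRG effect exceeded the lung effect, on the log2 scale, by 13.49 for Hoxd8, 11.96 for Hoxb8, 7.82 for Hoxa6, 6.56 for Hoxa7 and 4.45 for Hoxa5. Of the other rises it exceeded it by 9.87 for Xist, 9.67 for Rab26, 7.34 for Pcsk1, 3.18 for AI506816 and 1.53 for Rab3b. Where a group has no or almost no counts, as for Hoxd8, Hoxb8 and Xist, these fitted values depend on the prior count and are no measure of size.

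Of the genes with the largest falls, the interaction was -4.98 for Nr2e1, -5.32 for Six3, -6.73 for Emx2, -1.59 for Gfap, -2.82 for Gria1, -7.41 for Col4a6 and -5.85 for Anxa3. The near-identical copies had interactions of -9.67 for Rps15a-ps8, -8.05 for Atp6v0c-ps2, -6.80 for Prdx2-ps1, -6.66 for Rps3a3 and -8.18 for Pcna-ps2. Gfap fell in both lines, and more in DRG pNSCs; the values for Nr2e1 and Six3, near 0 in both pNSC lines, depend on the prior count as well.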

How the results depend on the processing

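The number of genes called depended most on the fold threshold and the filter. Against 1134 genes called between DRG pNSCs and brain NSCs (372 higher, 762 lower), a mean count of 100 as the filter left 433 (137 and 296), which follows from the fewer genes tested, no fold limit gave 7646 (3789 and 3857), and glmTreat, which tests for more than 2-fold, gave 732, 221 of them higher. For DRG against tail pNSCs, 2335 (1020 higher, 1315 lower) became 1264 (521 and 743) with the stricter filter and 10169 (5049 and 5120) without a fold limit. For the interaction with the lung effect, 2265 (1243 and 1022) became 1135 (568 and 567) and 8693 (4327 and 4366). DESeq2 gave 1112 for DRG pNSCs against brain NSCs, RLE scaling 1136, upper-quartile scaling 1127, no filter 1579 and the fit over 4 groups 1377. Leaving out each sample of the groups compared in turn gave 1181 to 1231 genes (390 to 405 higher, 782 to 841 lower), 2377 to 2422 for the tail comparison (1033 to 1073, 1324 to 1373) and 2209 to 2336 for the interaction (1208 to 1288, 983 to 1096), and the chromosome medians then ran from -0.0442 to -0.0273 at the lowest and from 0.0343 to 0.0567 at the highest. The brain NSC samples in the tail fit were not left out.

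With the replicate number as a block, 1132 genes were called (370 higher, 762 lower). The deviations of same-numbered samples from their group means correlated at 0.0541, 0.02 and 0.0131 across 9833 genes, so the samples share only a number. No named gene changed direction under any alternative, and 115 of the 142 tested ones stayed on the same side of the thresholds under all 15. Of the 72 counts of list members called higher or lower, 9 stayed within 1.5 times under all 15, and the others moved most often without a fold limit or with the stricter filter. Under glmTreat, the calls of Sox1, Prom1, Mfng, Nefl, Dcx, Nefm, Egfl7, Plvap, Ror1, Tgfbr3, Fgf13, Pmaip1, Cdkn2b, Rsad2 and Dnah1 were lost. All 28 tested Hox genes stayed higher with DESeq2, both other scalings, the block and glmTreat, and 10 of 10 did with the stricter filter. At these depths a gene under 0.263 to 0.306 cpm could not be told from 0.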

Other observations

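The clustered protocadherins, cell adhesion proteins of which a neural cell uses a few by random promoter choice, were looked at after their values were seen. Of the 22 genes of the Pcdhb cluster, 20 were tested, 16 were lower in DRG pNSCs, beside 5.99% of all genes tested, and none was higher. All 20 had a negative log2 fold change, with a median of -1.64, from -3.46 for Pcdhb2 to -0.26 for Pcdhb19. Pcdhb2 was at 7.22, 7.85 and 7.45 cpm in brain NSCs and 0.263, 1.02 and 0.797 cpm in DRG pNSCs. In the Pcdhg cluster, 10 of 21 tested genes were lower and 1 higher, beside 5.99% lower and 2.92% higher of all genes tested. Pcdhgb1 was at 18.3, 19.1 and 20.5 cpm in brain NSCs and 0.875, 0.713 and 0.299 cpm in DRG pNSCs (-4.89 ± 0.19), whereas Pcdhga12 was at 1.31, 2.65 and 2.57 cpm and 20.5, 21.4 and 22.9 cpm (3.30 ± 0.14). In the Pcdha cluster, 2 of 4 tested genes were higher, beside 2.92% of all genes tested, Pcdha9 among them, at 0.913 ± 0.184 and 5.13 ± 0.568 cpm. These genes share exons or sequence within a cluster, so reads can be split between members.

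In all, 62 genes had 3 counts or fewer in each brain NSC sample and at least 1 cpm on average in DRG pNSCs, 23 of them Hox genes, and 101 genes showed the converse. Among the latter, Ifi202b, an interferon-induced gene, was at 6.37, 6.32 and 6.12 cpm in brain NSCs and had no count in DRG pNSCs, at least 21.7-fold lower, and its neighbour in family Ifi203 was at 13.3, 12.9 and 12.6 cpm with 1 count in DRG pNSCs. Both genes were chosen after their values were seen.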
